A study of Mus musculus with 8 samples.

Results

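The data described here are the read counts of 10 genes of the response to low oxygen, *Vegfa*, *Hif1a*, *Bnip3*, *Pdk1*, *Egln1*, *Egln3*, *Adm*, *Slc2a1*, *Slc2a3* and *Ndrg1*, in mouse peripheral blood after restraint stress. They were taken by gene symbol from a table of 21878 symbols, and 10 of the 10 were found in it. RNA of frozen peripheral blood was sequenced in 8 samples from female wild type (WT) C57BL/6 mice of 6-8 weeks, 4 from mice that spent 6 hours in a ventilated tube (the stress group) and 4 from cage-kept littermates (the control group). Food and water were withheld from both groups, so fasting was shared by them. The comparison has a single time point, and neither oxygen nor the HIF protein was measured in these data.

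Cells sense oxygen through the hypoxia-inducible factors (HIF). With oxygen present, the prolyl hydroxylases of the Egln family mark the alpha subunit (Hif1a or Epas1) for destruction by the ubiquitin ligase that holds Vhl, and an asparagine hydroxylase, Hif1an, blocks its activity. When oxygen falls, the alpha subunit persists, pairs with Arnt and turns on genes for glucose uptake, glycolysis, the growth of vessels and the removal of mitochondria. Because Hif1a is controlled largely at the level of its protein, its transcript need not follow the activity of the pathway. Several of its target genes are also used by leukocytes, platelets and young red cells for other purposes.

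Control libraries held 31471145 to 39014775 counts and stress libraries 25978683 to 29655725, without overlap (p = 0.0286, two-sided exact permutation test, the smallest p that 4 samples against 4 allow). Haemoglobin genes took 51.9% to 63.8% of the control counts and 61.2% to 75.5% of the stress counts. Stress replicate 3 had the highest haemoglobin share and the fewest counts. Counts were scaled by TMM, which takes the typical gene as unchanged, and are given as CPM, the count as a share of the scaled library size in the usual per-million unit. Blood is a mixture, so a change in the number of cells of a type and a change of RNA per cell cannot be told apart. Markers of neutrophils, classical monocytes, platelets, reticulocytes, B cells, T cells and NK cells were present, and none of them was at 0 in all libraries. Of the endothelial markers, *Cldn5* had 0 to 6 counts, *Tek* 0 to 8 and *Emcn* 2 to 12 per library. *Cdh5* had 1 to 29 and *Kdr* 22 to 105, so endothelial RNA was scarce but not absent. *Vwf*, which megakaryocytes and platelets also make, had 3531 to 11110.

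Genes that reached 10 counts in 4 or more of the 8 samples were tested, 9 of the 10 genes here and 11718 in all. A call needed a log2 fold change beyond 1 in either direction together with an adjusted p under 0.01 in edgeR's quasi-likelihood test (Benjamini-Hochberg over all tested genes). Of the 9 genes, 1 was called up in the stress group (*Ndrg1*) and 0 down, while 1.69% of all tested genes were called up and 0.0171% down (1.71% in either direction). At an unadjusted p under 0.05 there were 3 of the 9, *Ndrg1*, *Slc2a3* and *Vegfa*, all of them higher (18.2% of all tested genes were higher at this p). DESeq2 called *Ndrg1* and *Vegfa*, and it called more genes in all, 307 up and 12 down, against 198 and 2 with edgeR. In *Ndrg1*, *Slc2a3* and *Vegfa* all stress samples lay above all control samples, which was so for 11.1% of all tested genes. In 0 every stress sample lay below, against 9.87% of all (21% in either direction). The other 6 genes had log2 fold changes between -0.22 and 0.22. The median log2 fold change of the 9 was 0.10 and that of all tested genes -0.03.

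**Figure D1:**
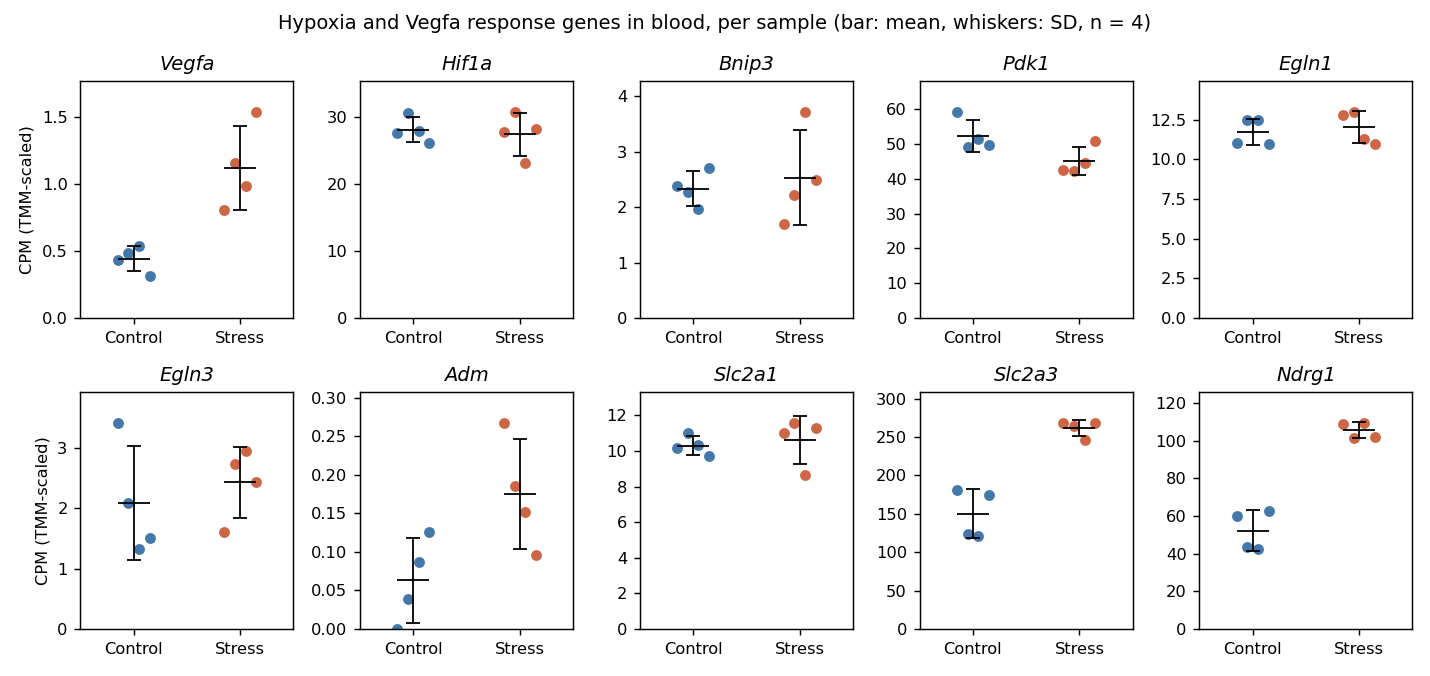
TMM-scaled CPM (linear axes from 0) of each of the 10 genes in the 4 control and 4 stress samples, 1 point per sample, with the mean and SD. The groups are apart for *Vegfa*, *Slc2a3* and *Ndrg1* and overlap for the other 7.

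Per length of the annotated exons, the genes differed widely in level. In the control group *Slc2a3* was highest at 20.7 ± 4.45 RPKM (CPM per kilobase of exon; SD, n = 4), followed by *Ndrg1* (7.90 ± 1.63), *Pdk1* (6.73 ± 0.596), *Hif1a* (4.77 ± 0.318), *Egln1* (3.26 ± 0.236) and *Slc2a1* (2.94 ± 0.154). Lower still were *Bnip3* (1.03 ± 0.136), *Egln3* (0.785 ± 0.356), *Vegfa* (0.103 ± 0.0219) and *Adm* (0.0388 ± 0.0340). Neighbours in this order whose control ranges overlapped, and which the spread does not tell apart, were *Ndrg1* and *Pdk1*, *Egln1* and *Slc2a1*, *Bnip3* and *Egln3*, and *Vegfa* and *Adm*. The order of the means was the same in the stress group, where *Slc2a3* stood at 36.1 ± 1.46 RPKM, *Ndrg1* at 16.0 ± 0.647 and *Vegfa* at 0.262 ± 0.0730. There the ranges of *Ndrg1* and *Pdk1* no longer overlapped, nor did those of *Vegfa* and *Adm*.

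*Vegfa* (GRCm38 chromosome 17, 46016993 to 46032369, minus strand) encodes the growth factor that drives the sprouting and leakiness of vessels. It was scarce in blood, with 16, 25, 37 and 10 counts in control replicates 1 to 4 and 18, 25, 13 and 48 in stress replicates 1 to 4. On the CPM scale these were 0.435, 0.484, 0.535 and 0.315 in the control group and 0.803, 1.16, 0.987 and 1.54 in the stress group. The lowest stress sample lay above the highest control sample, and stress replicate 4 was the highest of the 8. The mean went from 0.442 ± 0.0938 to 1.12 ± 0.313 CPM (SD, n = 4 in each), or by 1.33 on the log2 scale (standard error 0.35, 95% confidence interval 0.57 to 2.09). The adjusted p was 0.0248 with edgeR, so that *Vegfa* passed the fold change threshold but not that on the adjusted p. With DESeq2 it passed both (log2 fold change 1.34, adjusted p = 0.00388). Over the edgeR fits with other scalings, filters, a replicate block or a sample left out and with limma-voom it passed in 0.

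The 250 bases before the start site of *Vegfa*, *Bnip3* and *Slc2a1* are shown as examples of where the HIF dimer can act. *Vegfa* is the gene of the 3 whose groups were apart, and *Bnip3* and *Slc2a1* are textbook HIF targets whose groups overlapped. The dimer binds the core ACGTG or GCGTG, and capitals mark each place where either was found, read on the strand given or on the opposite one. The windows come from RefSeq on GRCm38.p6 and are written 5′ to 3′ along the gene, for *Vegfa* chr17:46032378-46032627 on the minus strand, for *Bnip3* chr7:138909507-138909756 on the minus strand and for *Slc2a1* chr4:119108495-119108744 on the plus strand.
Vegfa: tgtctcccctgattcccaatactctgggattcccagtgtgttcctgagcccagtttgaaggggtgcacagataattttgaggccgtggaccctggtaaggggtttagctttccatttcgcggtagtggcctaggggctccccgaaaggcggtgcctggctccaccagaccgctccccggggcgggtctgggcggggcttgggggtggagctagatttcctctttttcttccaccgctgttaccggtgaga
Bnip3: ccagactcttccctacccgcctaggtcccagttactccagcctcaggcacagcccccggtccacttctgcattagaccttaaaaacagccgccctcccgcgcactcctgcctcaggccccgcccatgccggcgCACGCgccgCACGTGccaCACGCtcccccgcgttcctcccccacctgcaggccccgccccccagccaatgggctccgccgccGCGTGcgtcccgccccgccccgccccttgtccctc
Slc2a1: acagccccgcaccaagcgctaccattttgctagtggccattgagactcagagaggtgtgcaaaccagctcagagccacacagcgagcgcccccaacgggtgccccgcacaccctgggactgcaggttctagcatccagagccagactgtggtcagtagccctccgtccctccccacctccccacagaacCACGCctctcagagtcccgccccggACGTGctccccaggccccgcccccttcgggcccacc
The *Bnip3* window held the core in 4 places, 1 of which, CACGTG, can be read on both strands. The *Slc2a1* window held it in 2 places and this *Vegfa* window in 0. Of the 10 genes 8 had a window in the table, and each of the 8 had a place in at least 1 window. For *Vegfa* that was a second listed window, inside the gene (chr17:46025164-46025413), with 2 places. The bases 30 to 50 after the listed starts of this window and of that of *Hif1a* were not found in the annotated transcripts, unlike those of the other 8 windows, so that these starts are uncertain and 6 genes had a place at a start so checked. Among 32851 windows of the same length 38.6% held at least 1 place and 13.5% at least 2. *Ndrg1* and *Slc2a3* had no entry. A match is a description of letters and not a bound site, and no match in 250 bases says nothing of sites farther away.

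*Ndrg1* (GRCm38 chromosome 15, 66929318 to 66969640, minus strand) encodes a cytoplasmic protein known as a strongly hypoxia-induced gene in many cell types. It had 60.1, 43.5, 42.3 and 62.7 CPM in control replicates 1 to 4 and 108.8, 101.6, 109.5 and 101.9 CPM in stress replicates 1 to 4. With TMM all 4 stress samples lay close together and far above the controls, and control replicates 1 and 4 were higher than 2 and 3. With total counts alone the groups overlapped, at 63.1 to 75.0 CPM in controls and 55.55 to 112.2 CPM after stress. On the TMM scale the gene rose from 52.1 ± 10.8 to 105.5 ± 4.27 CPM (SD, n = 4 in each), 2.02-fold. On the log2 scale this was 1.02, with a standard error of 0.14 and a 95% confidence interval of 0.71 to 1.32 (edgeR, adjusted p = 0.00107). The fold change sat at the threshold. Without control replicate 2 it was 0.94 and without control replicate 3 0.93, under the threshold, at adjusted p-values of 0.00744 and 0.00415 (edgeR). Its relatives *Ndrg2* (log2 fold change 0.51, adjusted p = 0.0663, edgeR) and *Ndrg3* (0.06, adjusted p = 0.763) were not called. The annotation places an antisense gene and a divergent noncoding gene over *Ndrg1*, whose reads cannot be told apart from its own if strand was not used.

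*Slc2a3* and *Slc2a1* encode the glucose transporters GLUT3 and GLUT1, and the former, on GRCm38 chromosome 6 (122727809 to 122801640), has a high affinity for glucose. *Slc2a3* had 181.4, 124.2, 120.6 and 174.5 CPM in control replicates 1 to 4 and 267.8, 263.9, 246.1 and 268.8 CPM in stress replicates 1 to 4. As for *Ndrg1*, with TMM control replicates 1 and 4 were the higher pair and the stress samples were close together. With total counts alone the groups overlapped (175.5 to 213.9 CPM in controls, 124.8 to 295.8 CPM after stress). The log2 fold change with TMM was 0.80 (standard error 0.16, 95% confidence interval 0.46 to 1.14, adjusted p = 0.00562, edgeR), short of the fold change threshold. Without that threshold 2 of the 9 genes were higher at an adjusted p below 0.01, *Ndrg1* and *Slc2a3*, against 4.6% of all tested genes. The adjusted p of *Slc2a3* was 0.0315 and 0.0226 without control replicate 2 or 3 (edgeR). It was 0.0168, 0.0175 and 0.0119 without stress replicate 1, 2 or 4, and 0.0106 with the replicate block. Without control replicate 1 or 4 or stress replicate 3 it stayed below 0.01. *Slc2a1*, on chromosome 4 (119108711 to 119137983), lay at 9.71 to 11.01 CPM in controls and at 8.65 to 11.59 CPM after stress, with a log2 fold change of 0.05 (standard error 0.12, 95% confidence interval -0.20 to 0.31). A pseudogene lies within *Slc2a3* on the same strand, so part of its reads could be split. *Slc2a6*, a transporter of the same family found in leukocytes, had a log2 fold change of 0.68 (adjusted p = 0.0334, edgeR) and was not called. Of the other relatives *Slc2a8* and *Slc2a9* lay at -0.02 and -0.03, and *Slc2a2* and *Slc2a5* had no count in any sample.

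With TMM the transcripts of *Hif1a* and of the sensors *Egln1* and *Egln3* stayed within the spread between samples. *Hif1a* (GRCm38 chromosome 12, 73901375 to 73947530) had 27.7, 30.6, 28.0 and 26.1 CPM in control replicates 1 to 4 and 27.8, 30.8, 23.1 and 28.2 CPM in stress replicates 1 to 4. Stress replicate 3 was the lowest and the groups overlapped fully. Its log2 fold change was -0.03 (standard error 0.11, 95% confidence interval -0.27 to 0.20) with TMM, and -0.81 (adjusted p = 0.0423, edgeR) with total counts alone, where the typical gene lay at -0.82. *Egln1*, the main oxygen sensor of most cells, lay at 10.97 to 12.46 CPM in controls and at 10.98 to 12.98 CPM after stress (log2 fold change 0.03, 95% confidence interval -0.20 to 0.27). With total counts alone its log2 fold change was -0.78 (adjusted p = 0.0461, edgeR), also near the typical gene. *Egln3*, which HIF itself induces and which is known to prolong the life of neutrophils in low oxygen, was scarce, with 48 to 126 counts in the controls and 36 to 76 after stress. Its CPM ran from 1.33 to 3.42 in the control group, where replicate 1 was highest, and from 1.60 to 2.96 in the stress group. The log2 fold change of *Egln3* was 0.22 with an interval of -0.44 to 0.88, much wider than that of *Egln1*.

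*Pdk1*, on GRCm38 chromosome 2 (71873224 to 71903858), encodes a mitochondrial kinase that inhibits pyruvate dehydrogenase and so limits the oxidation of pyruvate. It had 59.1, 49.0, 51.4 and 49.8 CPM in control replicates 1 to 4 and 42.5, 42.3, 44.5 and 50.8 CPM in stress replicates 1 to 4. Of the stress samples 3 lay under every control sample and replicate 4 lay among the controls. The log2 fold change was -0.22 (standard error 0.11, 95% confidence interval -0.45 to 0.01, adjusted p = 0.186, edgeR). Its relatives *Pdk2* and *Pdk3* lay at log2 fold changes of 0.17 and 0.18 and were not called, and *Pdk4* had 0 to 4 counts per sample.

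*Bnip3* (GRCm38 chromosome 7, 138890836 to 138909519) encodes a protein of the outer mitochondrial membrane that marks mitochondria for autophagy. It had 1.97 to 2.71 CPM in the control group and 1.69 to 3.72 in the stress group, with stress replicate 3 highest (log2 fold change 0.10, 95% confidence interval -0.42 to 0.61). Its relative *Bnip3l*, which clears mitochondria from maturing red cells, had 45751 to 70903 counts per sample and a log2 fold change of 0.77 ± 0.32 (standard error; edgeR, adjusted p = 0.12), and was not called. *Adm* encodes adrenomedullin, a peptide that widens vessels. It had 0, 2, 6 and 4 counts in control replicates 1 to 4 and 6, 4, 2 and 3 in stress replicates 1 to 4, so it was not tested, and at this depth no change could be seen or excluded. Of its receptor genes, *Calcrl* (log2 fold change -0.10), *Ramp1* (0.43) and *Ramp3* (0.14) were tested and 0 were called.

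The scaling of the libraries set the zero of these fold changes. With total counts alone the log2 fold change of the typical tested gene (the median) moved from -0.03 to -0.82, and the median of the 9 genes from 0.10 to -0.70, so that both shifted by nearly the same amount. On that scale 0 of the 9 were called up or down, against 0.119% and 6.22% of all tested genes. The lowest log2 fold changes were those of *Pdk1* (-0.98, adjusted p = 0.0178, edgeR) and *Hif1a* (-0.81). They were 0.56 for *Vegfa*, 0.27 for *Ndrg1* and 0.08 for *Slc2a3*, with overlapping groups in each, and 0 of the 9 had every stress sample above or every stress sample below the controls (0.247% and 23.5% of all tested genes). Those of *Bnip3*, *Egln1*, *Egln3* and *Slc2a1* turned negative, between -0.78 and -0.55. Relative to the median of all genes, *Vegfa* stood at 1.36 with TMM and 1.38 with total counts, *Ndrg1* at 1.04 and 1.09, *Slc2a3* at 0.83 and 0.90, and *Hif1a* at -0.01 and 0.01. By fold change with TMM *Vegfa* ranked higher than 98.6% of all tested genes, *Ndrg1* than 95.9%, *Slc2a3* than 91.0% and *Pdk1* than 27.4%. Ordered by p instead (edgeR, smallest first), *Ndrg1* was at place 59, *Slc2a3* at 424, *Vegfa* at 1007 and *Pdk1* at 4014 of 11718.

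**Figure D2:**
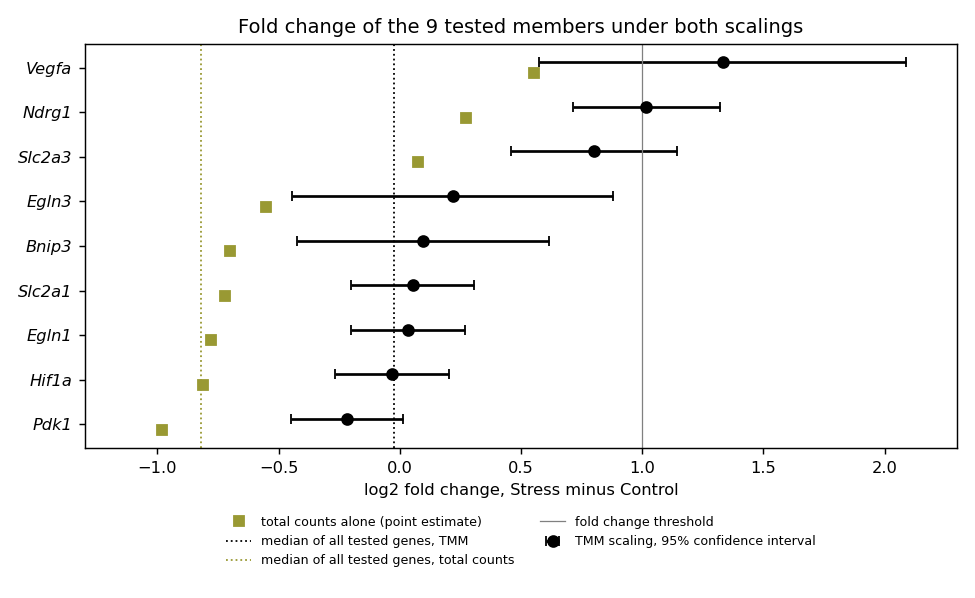
log2 fold change (stress minus control) of the 9 tested genes, with TMM (circles, 95% confidence interval) and with total counts alone (squares). Dotted lines mark the median of all tested genes on each scale, -0.03 and -0.82, and the order of the genes from *Pdk1* to *Vegfa* is the same on both.

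A ratio of 2 genes within a library does not depend on its scaling, and 4 such ratios were compared. The log2 ratio of *Vegfa* to *Hif1a* was -5.98 ± 0.252 in controls and -4.61 ± 0.374 after stress (SD, n = 4 in each), a difference of 1.36. That of *Slc2a3* to *Slc2a1* went from 3.84 ± 0.372 to 4.62 ± 0.138, a difference of 0.79. In both ratios the groups did not overlap (p = 0.0286, exact permutation test, two-sided, adjusted over the 4 ratios 0.0572). Each set a gene whose groups were apart over 1 with a log2 fold change near 0 (*Hif1a* -0.03, *Slc2a1* 0.05). The differences thus largely repeat the fold changes of *Vegfa* (1.33) and *Slc2a3* (0.80) and are not separate evidence. With a sample left out, the difference of *Vegfa* to *Hif1a* ran from 1.22 (without stress replicate 4) to 1.51 (without stress replicate 1). That of *Slc2a3* to *Slc2a1* ran from 0.67 to 0.89. Without stress replicate 3 it was 0.72 (exact permutation test, p = 0.0857). The groups were still apart there, but other splits of the remaining samples differed as much. The ratio of *Egln3* to *Egln1* overlapped (-2.58 ± 0.656 and -2.33 ± 0.456, exact permutation test, p = 0.514). The ratio of *Bnip3* to *Bnip3l* was lower in the stress group by 0.75 on average, with overlap (-9.30 ± 0.434 and -10.05 ± 0.496, exact permutation test, p = 0.0857, adjusted 0.114).

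**Figure D3:**
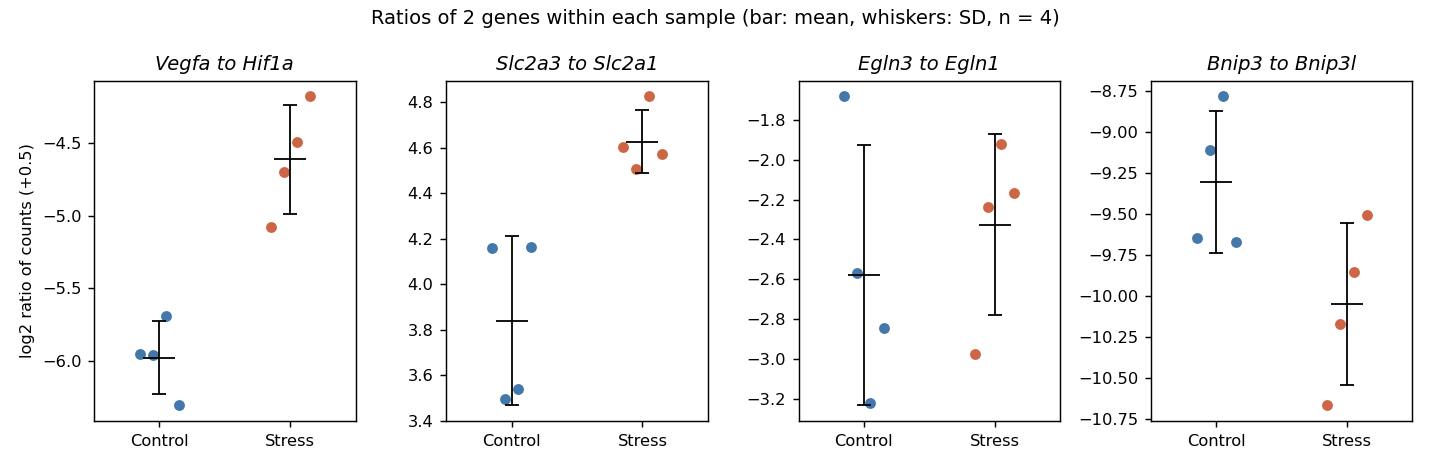
log2 ratio of the counts of 2 genes in the same library, 1 point per sample, with the mean and SD of each group of 4. The groups are apart for *Vegfa* to *Hif1a* and *Slc2a3* to *Slc2a1* and overlap for *Egln3* to *Egln1* and *Bnip3* to *Bnip3l*.

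Markers of several cell types differed between the groups in the same libraries. The counts that follow are to be read against 1.69% of all tested genes called up and 4.6% higher at an adjusted p below 0.01 without a fold threshold (edgeR). Of 12 neutrophil markers 9 were called up, and the summed level of the 12 was 202 to 400 CPM in the control group and 636 to 924 CPM in the stress group. Of the 2 most abundant, *Csf3r*, the receptor of a granulocyte growth factor, had 118.3 ± 36.4 CPM in controls and 208.6 ± 65.7 CPM after stress (SD, n = 4 in each), with overlap, and was not called (adjusted p = 0.0544, edgeR). The other, *S100a9*, a calcium-binding protein of neutrophils, rose from 50.4 ± 10.4 to 142 ± 29.8 CPM. Of 9 classical monocyte markers 6 were called up, with sums over the 9 of 353 to 475 CPM and 717 to 1243 CPM. The most abundant, *Lyz2*, lysozyme (272.8 ± 38.0 to 679.1 ± 140.9 CPM), and *F13a1*, a clotting factor subunit (48.3 ± 9.17 to 116.2 ± 9.29 CPM), were among the 6. Of 10 platelet markers 3 were called up and 10 were higher at an adjusted p below 0.01, with sums of 1411 to 2129 CPM and 3257 to 3889 CPM. The most abundant, the platelet chemokine *Ppbp* and the integrin *Itga2b*, both had a log2 fold change of 0.99 and fell short of the fold change threshold.

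The 10 reticulocyte markers had a median log2 fold change of 1.05 with overlapping sums and 0 called, and the haemoglobin genes *Hbb-bs* and *Hba-a1* lay at 1.08 and 1.03. The B cell markers were lower in 8 of 8 (median log2 fold change -0.49), 3 of them at an adjusted p below 0.01 (edgeR; 0.324% of all tested genes), and 0 were called. Their most abundant members, *Cd79a* and *Cd79b*, both lay at -0.22. Of the 9 T cell and 6 NK cell markers 0 were called, with *Lat* at 0.34, *Cd8a* at -0.12, *Gzma* at 0.14 and *Prf1* at -0.29. Within the control group replicates 1 and 4 were the higher pair for *Ndrg1* and *Slc2a3* with TMM. They also had the higher TMM-scaled sums of the platelet, neutrophil, classical monocyte, reticulocyte and endothelial (mostly *Vwf*) markers. Their B cell sums were the lower ones (879 and 901 CPM, against 1075 and 1094), and the T cell and NK cell sums did not split this way. The same replicates had the lower TMM scaling factors (1.17 and 1.006, against 1.473 and 1.774), a divisor that genes and markers share. On total counts alone control replicate 3 was highest and replicate 4 lowest for *Ndrg1* and *Slc2a3*. The part of these markers in the values of the 10 genes was not tested.

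Set against the summed markers in the same library, the groups overlapped for *Ndrg1*, *Slc2a3* and *Vegfa*. The 4 marker lists used had median log2 fold changes of 0.98 (platelets) to 1.49 (neutrophils). The 3 genes themselves lay at 0.80 to 1.33, so the choice of lists largely set this overlap. The B cell, T cell, NK cell and endothelial lists were not used in this way. The log2 ratio of *Ndrg1* to the platelet markers was -5.11, -5.08, -5.06 and -5.08 in control replicates 1 to 4 and -4.90, -5.14, -5.15 and -5.01 in stress replicates 1 to 4. The group means, -5.08 ± 0.0215 and -5.05 ± 0.117 (SD, n = 4 each), differed by 0.03 (two-sided exact permutation test, p = 0.657). *Slc2a3* to the platelet markers was -3.56 ± 0.0379 in controls and -3.74 ± 0.177 after stress, lower by 0.18 with overlap (exact permutation test, p = 0.0571). Against the neutrophil, classical monocyte and reticulocyte markers *Slc2a3* differed by -0.42, -0.47 and -0.21, and *Ndrg1* by -0.20, -0.26 and 0.01. *Vegfa* differed by 0.08 against the neutrophil markers (-9.41 ± 0.708 and -9.33 ± 0.253) and by 0.03 against the classical monocyte markers (-9.88 ± 0.454 and -9.85 ± 0.583), and by 0.32 against the platelet markers. Over 12 such ratios, 3 genes against 4 marker lists, chosen after the values were seen, the groups overlapped in 12 and the smallest adjusted p was 0.343 (exact permutation tests). The spread of *Vegfa* within the groups was wide, so that these ratios do not show equal levels. Which cells carried the 3 transcripts was not tested.

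**Figure D4:**
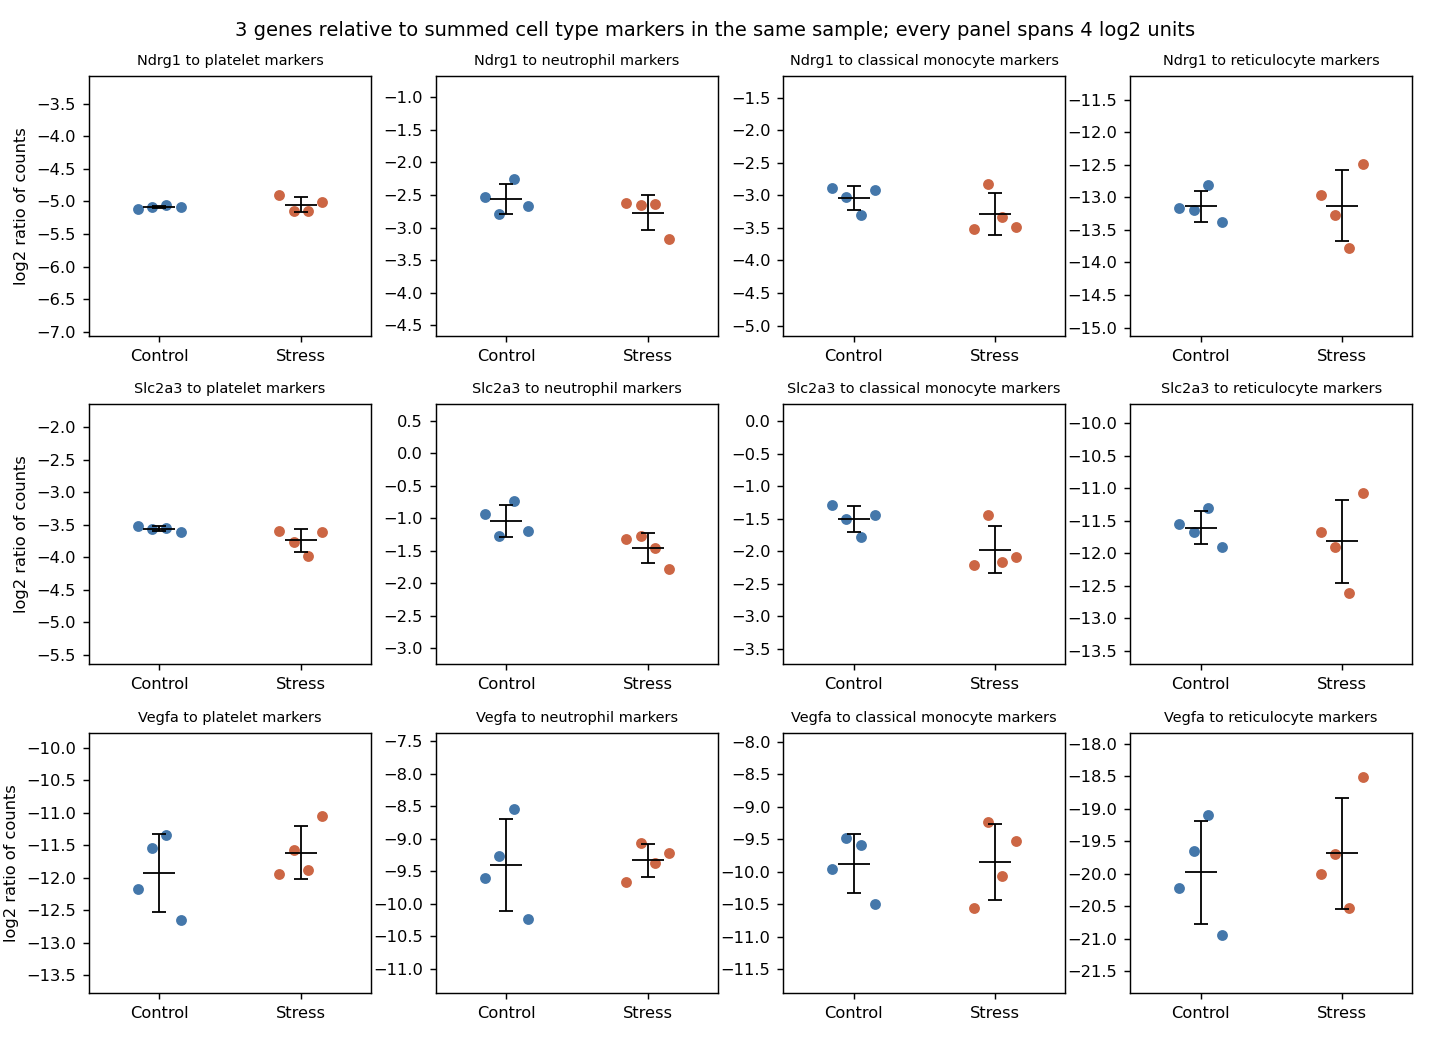
log2 ratio of the counts of *Ndrg1*, *Slc2a3* and *Vegfa* (rows) to the summed counts of 4 marker lists (columns), 1 point per sample with mean and SD, each panel spanning 4 log2 units. The groups overlap in all 12 panels, and the 4 control samples are tightest for *Ndrg1* and *Slc2a3* against the platelet markers.

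The genes whose pattern over the 8 samples was most like that of *Ndrg1* were *Ccdc92*, *Gsn* and *Rbpms2*, at distances of 0.156, 0.213 and 0.272 between z-scored log2 CPM profiles. They had log2 fold changes of 0.88, 0.86 and 1.08. For *Vegfa* the nearest were *Tmem50b*, *AA467197*, *Rab5b*, *Dfna5* and *Stx3*, at 0.821 to 0.875, so its profile was matched less closely. Of these *AA467197* was called up (log2 fold change 2.02, adjusted p = 0.00762, edgeR), and *Rab5b* differed little in size (log2 fold change 0.23). The likeness is a description over 8 samples that share 1 comparison.

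Beyond the 10 genes, 88 other genes of the pathway were listed, of which 64 were tested. Of these 46 had a log2 fold change above 0 and 18 below, 3 were called up and 0 down (4.69% called up, against 1.69% of all tested genes), and the median was 0.19. In 17 of the 64 all stress samples lay above all control samples and in 2 every stress sample lay below, against 11.1% and 9.87% of all tested genes. With total counts alone 0 were called up, and *Ddit4*, which restrains mTOR, was called down. The largest list was that of 30 other hypoxia-induced genes, with 20 tested and a median log2 fold change of 0.13. In it *Hmox1*, the enzyme that breaks down heme, rose from 2.38 ± 0.271 to 5.39 ± 0.682 CPM (log2 fold change 1.18, adjusted p = 0.00107), and *Plin2*, a coat protein of lipid droplets, from 5.09 ± 0.773 to 11.5 ± 3.19 CPM (1.18, adjusted p = 0.00206, edgeR; SD, n = 4 in each). Without control replicate 2 *Plin2* was not called, and *Hmox1* was called in each of the 8 fits that left out a sample. *Mxi1*, a repressor of Myc targets, had a log2 fold change of 0.84 (adjusted p = 0.0153), *Fam162a* of 0.37 and *Kdm4b* of -0.30, and these were not called. *Epo* had no count in any sample.

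Of 20 genes of glycolysis and lactate export, 19 were tested, with 16 above and 3 below 0 and a median log2 fold change of 0.38, the highest of the 6 lists. In 9 of the 19 all stress samples lay above all control samples (11.1% of all tested genes). *Slc16a3*, the lactate exporter MCT4, rose from 6.09 ± 1.42 to 13.8 ± 4.96 CPM (SD, n = 4 in each; log2 fold change 1.21, adjusted p = 0.00743, edgeR). Its call was lost in 6 of the 8 fits that left out a sample (control replicate 1, 2 or 3, stress replicate 1, 2 or 4), without the low-count filter and with total counts alone. *Tpi1* (log2 fold change 0.81), *Pkm* (0.70) and *Hk1* (0.63), enzymes of glycolysis, had adjusted p-values of 0.00322, 0.00498 and 0.00507 (edgeR) and stayed under the fold change threshold. *Aldoa* had a log2 fold change of 0.53 (adjusted p = 0.0105). *Gapdh*, whose reads are shared with many near-identical pseudogenes, had 8 to 60 counts per sample, and its value is uncertain. On total counts alone the median of the list was -0.44, with 17 of 19 below 0 and 15 above the typical gene.

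The 11 genes of the HIF subunits and of oxygen sensing had 9 tested, 0 called and a median log2 fold change of 0.13. Its largest values were those of *Tceb2* and *Tceb1*, which encode the elongins of the Vhl ligase (log2 fold changes of 1.00 and 0.75, adjusted p-values of 0.0356 and 0.0439, edgeR), with overlapping groups. *Hif1an* was lower in every stress sample (23.2 ± 2.08 and 19.7 ± 1.153 CPM, log2 fold change -0.24, adjusted p = 0.134), and *Epas1* and *Rbx1* lay at 0.21 and 0.18. Of 9 further VEGF ligands and receptors 5 were tested and 0 called. *Kdr* and *Nrp1*, a receptor and a co-receptor of VEGF (the former also an endothelial marker), had log2 fold changes of 0.75 and 0.66 (adjusted p-values of 0.0465 and 0.0402, edgeR) without overlap of the groups. *Vegfb* lay at -0.11, *Flt1* at 0.09 and *Nrp2* at 0.18, and *Vegfc*, *Vegfd*, *Pgf* and *Flt4* had too few counts to be tested. The lists of adrenomedullin receptors and of close relatives had 3 and 8 tested genes, medians of 0.14 and 0.18, and 0 called.

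**Figure D5:**
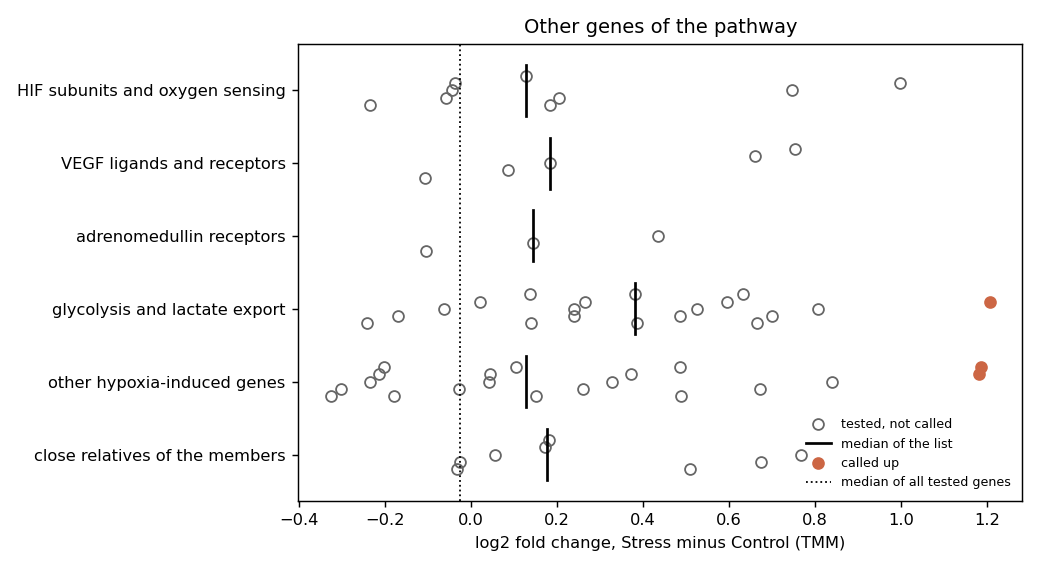
log2 fold change (stress minus control, TMM) of the 64 tested genes of 6 lists of the pathway, 1 circle per gene, filled where called up (*Slc16a3*, *Plin2* and *Hmox1*). Bars mark the median of each list, from 0.13 to 0.38, and the dotted line the median of all tested genes, -0.03, and vertical offsets within a list only separate the circles.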

How the data were processed

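RNA from peripheral blood was sequenced in 8 libraries, 4 per group. The table the authors deposited holds raw counts of reads, 1 column per sample and 1 row per symbol, without normalization. The submitters' processing notes name HISAT2, featureCounts and the build mm10, and the annotation, the strand setting and filters are not given in the sources used here. A minimum of 10 counts in 4 samples was required, and genes were fitted with R 4.3.3 and edgeR 4.0.16 (TMM, robust quasi-likelihood test, Benjamini-Hochberg over 11718 genes) and called by a log2 fold change beyond 1 in either direction with an adjusted p under 0.01, as in the study's methods, which used DESeq2. Confidence intervals used the degrees of freedom of that fit. The fit was tested on simulated data.

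The 10 genes, the pathway and marker lists and the tests were chosen with earlier results of these data known. The text names the 10 genes, in each pathway list the called genes and up to 5 with the smallest p, the 5 tested genes nearest to *Vegfa* and the 3 nearest to another called gene by Euclidean distance, and the 2 most abundant markers of each cell type. Further relatives and pathway genes were named after their values were seen. Older symbols (such as *Tceb1*) were used where the table has them. Ratios used counts plus 0.5 and exact permutation tests over 70 assignments. The labels number the samples and tie none to a mouse, so p-values measure the spread between these samples, which may be partly technical.

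Exon lengths and gene coordinates are from GENCODE M21 on GRCm38, the same assembly as mm10, and start site windows from RefSeq (GRCm38.p6). Alternatives were DESeq2 1.42.0, limma-voom (limma 3.58.1), other scalings, filters and thresholds, the replicate block and leaving out each sample. The table holds 0 columns that could not be mapped to a sample. No 2 libraries of a group agreed within sampling noise (chi-square per degree of freedom 18.5 to 199).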

Additional observations from a re-analysis of the deposited data

Results flagged for a closer look

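Among 48 groups of 4 samples that were checked (the 10 genes, 4 ratios, library totals, haemoglobin share and marker sums), 2 held a sample set far from the other 3, about as many as chance gives at 1 in 20. The summed neutrophil markers were 924 CPM in stress replicate 4, against 636.2 to 679.5 CPM in the other stress samples. The summed NK cell markers were 105 CPM in stress replicate 3, against 43.8 to 51.8 CPM in the others. None of the 10 genes was set apart in this way in either group.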

How the results depend on the processing

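The log2 fold changes of *Vegfa*, *Ndrg1*, *Slc2a3* and *Pdk1* kept their sign under every alternative, and *Ndrg1* stayed the called gene except where named here. Of the 10 genes, 0 were called up with total counts alone or without control replicate 2 or 3 (0 to 1 over the fits that left out 1 sample) and 2 with DESeq2 (*Ndrg1*, *Vegfa*), with an adjusted p below 0.05 (*Ndrg1*, *Vegfa*) or without the fold change threshold (*Ndrg1*, *Slc2a3*). For all genes, 198 up and 2 down became 14 and 729 with total counts, 307 and 12 with DESeq2, 337 and 20 at an adjusted p below 0.05 and 539 and 38 without the fold threshold. Leaving out 1 sample gave 76 (control replicate 2) to 340 (control replicate 4) up, 95 without control replicate 3, and 1 to 8 down. Genes called down were 4 with upper quartile scaling and 4 without a low-count filter. The pathway lists had 3 called up, 0 up and 1 down with total counts, 6 up without the fold threshold, and 1 (without control replicate 2) to 5 (without control replicate 4) up over the fits that left out 1 sample. Signs turned for *Bnip3* (-0.70 with total counts, -0.10 without stress replicate 3, up to 0.27 without others), *Egln1* (-0.78), *Egln3* (-0.55) and *Slc2a1* (-0.72, all with total counts), and for *Hif1a* (0.01 without control replicate 2, 0.056 without stress replicate 3, down to -0.064 without others). The difference of the ratio *Slc2a3* to *Slc2a1* was 0.67 to 0.89 and that of *Bnip3* to *Bnip3l* -0.93 to -0.54 when samples were left out, and the latter reached p = 0.0286 (exact permutation test) without stress replicate 4. Same-numbered samples did not deviate together (correlations -0.16 to 0.06, and 2 of 8 samples closest to their own number), and with the replicate block 1 of the 10 genes was called up, and 189 genes overall were called up and 1 down. Depth limits *Adm*, *Vegfa* and *Egln3*. The cause of these changes was not tested.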
